A study of Mus musculus with 24 samples.

Results

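The Serpina genes are clade A of the serpins, a family of secreted proteins that the liver releases into plasma in large amounts. Most serpins are suicide inhibitors: a protease cuts an exposed bait, the reactive centre loop, and is trapped in a covalent complex as the inhibitor folds around it. A few members have lost this activity and carry a hormone in its place. Here 10 members were described, chosen by gene symbol from the 55421 genes of the count table, and all 10 passed the filter on low counts that left 13583 genes for testing. Serpina1a, Serpina1b, Serpina1c, Serpina1d and Serpina1e are the mouse copies of alpha-1 antitrypsin, a plasma protease inhibitor. Which protease each copy inhibits was not examined. The other members were Serpina3k, Serpina3m and Serpina3n (antichymotrypsin relatives), Serpina6 (corticosteroid-binding globulin, a hormone carrier) and Serpina12 (vaspin, an inhibitor of kallikrein 7).

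Transcripts were measured by polyA RNA-seq in hepatocytes isolated by perfusion of the liver, to ask how age changes the response to a fatty diet. All 24 mice were male. The 4 groups, young or old mice on a normal (ND) or high-fat diet (HFD), held 6 mice each, divided evenly between batch 1 and batch 2 but for old ND, with 2 mice in the former and 4 in the latter. HFD was diet 58Y1, with 60% of energy from fat, given for 9 weeks, and ND was a Teklad chow by the labels, while the study's methods name another normal diet. By the labels young mice were C57BL/6N of 6 months and old mice C57BL/6J of 24 months, and effects of age and of substrain cannot be told apart. The study's text gives other ages. Total counts per mouse were 9200332 to 22185069, and the lowest totals were those of old HFD.

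Hepatocyte markers far exceeded those of other cell types in every library. The 9 listed hepatocyte markers measured, among them albumin, summed to between 48273 and 164392 CPM (counts scaled to a common library size) in each mouse. Markers of other liver cells were low but moved with the groups. The 12 Kupffer cell and macrophage markers summed to 2.22 to 103 CPM per mouse in young ND and 79.1 to 1651 in old ND, with 19.2 to 259 in young HFD and 113 to 859 in old HFD. All 12 were called higher with age on ND (7.26% of all genes), and 1 of 12 with HFD in young mice (1.91% of all genes). With old ND replicate 4 left out it was 11 and 4, where 4.26% and 4.95% of all genes were called in either direction. The neutrophil marker Ly6g had 0 counts in all 24 mice. In such bulk samples, fewer cells of a type and less RNA per cell cannot be told apart.

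All 10 genes lie in 1 cluster on chromosome 12 (GENCODE annotation of GRCm38). On the minus strand are Serpina6 (ENSMUSG00000060807) at chr12:103646630-103657212, Serpina1b (ENSMUSG00000071178) at chr12:103728156-103830373, Serpina1d (ENSMUSG00000071177) at chr12:103763594-103773592 and Serpina1a (ENSMUSG00000066366) at chr12:103853589-103863562. They are followed by Serpina1c (ENSMUSG00000079015) at chr12:103894926-103904887, Serpina1e (ENSMUSG00000072849) at chr12:103946931-103958975 and Serpina12 (ENSMUSG00000041567) at chr12:104028769-104044443. On the plus strand are Serpina3k (ENSMUSG00000058207) at chr12:104338486-104346144, Serpina3m (ENSMUSG00000079012) at chr12:104338486-104394257 and Serpina3n (ENSMUSG00000021091) at chr12:104406729-104414329. The annotated span of Serpina1b contains Serpina1d, and Serpina3k and Serpina3m share 60 exonic bases. Serpina1c shares 429 exonic bases with B430119L08Rik, and since the strand setting of the counting is not stated, reads there could belong to either gene.

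The Serpina1 copies are nearly the same in their coding sequence, with 96.3% to 98.5% of bases identical between any pair over 1239 aligned bases. Of these aligned columns 86 differed between at least 1 pair of copies, and they were densest near the end of the coding sequence. The reactive centre loop lies near the carboxyl end of a serpin, and is known to diverge between the mouse copies, but whether the window shown here lies in it was not examined. The 60-base window with the most differences is shown because it is where a read can best tell the copies apart. Capitals mark the 18 columns that differ, against a median of 4 in windows of that length. The window starts at coding base 1101, or 1170 in Serpina1a, whose annotated coding sequence is longer at its start.
Serpina1a: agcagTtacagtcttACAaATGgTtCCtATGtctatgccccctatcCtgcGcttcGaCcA
Serpina1b: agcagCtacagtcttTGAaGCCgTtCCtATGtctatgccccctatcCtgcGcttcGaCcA
Serpina1c: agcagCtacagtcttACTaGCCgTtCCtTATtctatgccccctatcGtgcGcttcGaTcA
Serpina1d: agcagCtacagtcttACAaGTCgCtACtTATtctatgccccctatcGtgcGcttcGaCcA
Serpina1e: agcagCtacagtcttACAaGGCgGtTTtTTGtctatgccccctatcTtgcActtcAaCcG

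How far a read can be placed differed between the genes. Of all 100-base stretches of a copy's transcript, 30.7% were found in no other annotated transcript for Serpina1c, 50.1% for Serpina1a, 70.7% for Serpina1d, 73.6% for Serpina1b and 81.8% for Serpina1e. Stretches of 50 bases gave lower shares, at 20.7% for Serpina1c, 32.6% for Serpina1a, 49.1% for Serpina1d, 52.9% for Serpina1b and 62.1% for Serpina1e. Among the other genes 100-base stretches gave 93.9% for Serpina3m, 95.1% for Serpina3k, 99.8% for Serpina3n and 100% for both Serpina6 and Serpina12, and 50-base stretches 80.9%, 86.0%, 93.1% and again 100% for both. Serpina3k and Serpina3m were 91.4% identical in coding sequence, and 82.9% and 85.2% identical, in that order, to Serpina3n. The read length is not given in the sources used here, and how the counting treated reads that fit several copies was not stated, so levels of single Serpina1 copies and, less so, of Serpina3k and Serpina3m are uncertain.

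The promoters of the Serpina1 copies were also alike. RefSeq promoters (GRCm38.p6, 250 bases before to 50 after the start) were given for 7 of the 10 genes, not for Serpina3k, Serpina3m and Serpina6. The stretch that all 5 copies share is shown because Serpina1e, whose transcript moved with diet, can be set beside 4 copies whose transcripts were not called. Capitals mark the 23 columns that differ between copies. Identity between pairs was 92.5% to 97.9%, and in 1 column Serpina1e alone differed from all others. All are on the minus strand, at chr12:103863625-103863811 for Serpina1a, chr12:103738200-103738388 for Serpina1b, chr12:103904962-103905148 for Serpina1c, chr12:103773634-103773821 for Serpina1d and chr12:103956960-103957146 for Serpina1e. The stretch ended 63 bases before the RefSeq start in Serpina1e and 1 to 12 bases before it in the other copies. In Serpina1b and Serpina1e it lies inside the annotated gene span given above, so their RefSeq starts are not the outer ends of those spans.
Serpina1a: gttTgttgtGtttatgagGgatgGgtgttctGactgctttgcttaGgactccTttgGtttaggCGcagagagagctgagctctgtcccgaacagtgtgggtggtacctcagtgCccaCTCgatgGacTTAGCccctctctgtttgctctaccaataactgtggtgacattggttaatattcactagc
Serpina1b: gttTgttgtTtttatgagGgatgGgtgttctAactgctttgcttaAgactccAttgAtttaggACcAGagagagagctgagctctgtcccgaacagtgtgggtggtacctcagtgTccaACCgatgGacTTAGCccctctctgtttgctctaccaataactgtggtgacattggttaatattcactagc
Serpina1c: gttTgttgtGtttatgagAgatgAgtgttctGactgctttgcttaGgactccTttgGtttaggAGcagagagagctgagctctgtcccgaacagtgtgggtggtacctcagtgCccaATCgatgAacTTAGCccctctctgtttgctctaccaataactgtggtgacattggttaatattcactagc
Serpina1d: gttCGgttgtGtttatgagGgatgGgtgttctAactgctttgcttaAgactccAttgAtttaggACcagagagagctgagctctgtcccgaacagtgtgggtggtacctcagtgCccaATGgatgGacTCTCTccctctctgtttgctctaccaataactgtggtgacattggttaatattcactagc
Serpina1e: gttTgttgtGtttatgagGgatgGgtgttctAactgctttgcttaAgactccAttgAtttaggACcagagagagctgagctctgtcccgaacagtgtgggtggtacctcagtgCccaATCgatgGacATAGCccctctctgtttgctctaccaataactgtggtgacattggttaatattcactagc

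A total of 4 motifs were looked for on both strands of the 250 bases before the start in the 7 promoters. The C/EBP motif TTGCNNAA was found in Serpina1b, Serpina1d, Serpina1e and Serpina12, and in 9.56% of all 32851 promoters. The glucocorticoid receptor motif ACANNNTGT was found in Serpina1a and Serpina3n, and in 5.84% of all promoters. The STAT motif TTCNNNGAA, held by 7.02% of promoters, and the HNF1 motif, held by 0.00913%, were found in none of the 7. A match is only a run of letters, and a missing match says only that the letters are not in this window.

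The 10 genes together took a larger share of the counts in young ND, at 2.73% ± 0.246 (SD, n = 6), than elsewhere, at 2.07% ± 0.368 in old ND, 2.06% ± 0.228 in young HFD and 2.02% ± 0.409 in old HFD, a difference that was not tested. The 5 Serpina1 copies accounted for most of this, at 1.71% ± 0.209 in young ND, 1.37% ± 0.289 in old ND, 1.28% ± 0.156 in young HFD and 1.33% ± 0.279 in old HFD. Levels of different genes were compared as CPM per kilobase of exon. Serpina3k, known as a kallikrein-binding protein, had the highest mean in all 4 groups, at 4729 ± 336 in young ND. In old ND it was a near tie with Serpina1e, at 2896 ± 607 against 2857 ± 858, and Serpina1e was above Serpina3k in 4 of the 6 old ND mice. In young ND it was followed by Serpina1e at 3780 ± 1166, Serpina1c at 2266 ± 354, Serpina1d at 1810 ± 148, Serpina1b at 1662 ± 138 and Serpina1a at 864 ± 101. The 4 least abundant members on this scale were Serpina3m at 146 ± 26.7, Serpina3n at 131 ± 28.4, Serpina6 at 110 ± 10.3 and Serpina12 at 16.2 ± 4.15. Among neighbours in this order, mice overlapped from Serpina3k down to Serpina1b and from Serpina3m down to Serpina6, and did not overlap between Serpina1b and Serpina1a, Serpina1a and Serpina3m, or Serpina6 and Serpina12. In young HFD the order differed: Serpina1e, at 783 ± 407, stood at rank 6 in place of 2, though its mice overlapped with those of Serpina1a at 806 ± 94.4, and by FPKM its rank was 5.

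The deposited FPKM values, also per length, gave a different order, in young ND by the place of a pair of genes. Serpina1b had a mean FPKM of 38.7 and Serpina3m 4.42 in young ND, or 2.74% and 0.313% of the Serpina3k value. By CPM per kilobase they stood at 35.1% and 3.08% of Serpina3k. Both genes have long annotated spans that contain another member. For the other 8 genes the ratio of CPM per kilobase to FPKM was 3.35 to 7.07, against 42.9 for Serpina1b and 33.0 for Serpina3m. In young and old HFD mice Serpina3n and Serpina6 also changed places. Serpina3n was the higher by mean FPKM (59.9 against 36.5 in young HFD and 53.9 against 31.4 in old HFD) and the lower by CPM per kilobase (190 against 204 and 167 against 178). Which scale is nearer the true level of any member was not tested.

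**Figure D1:**
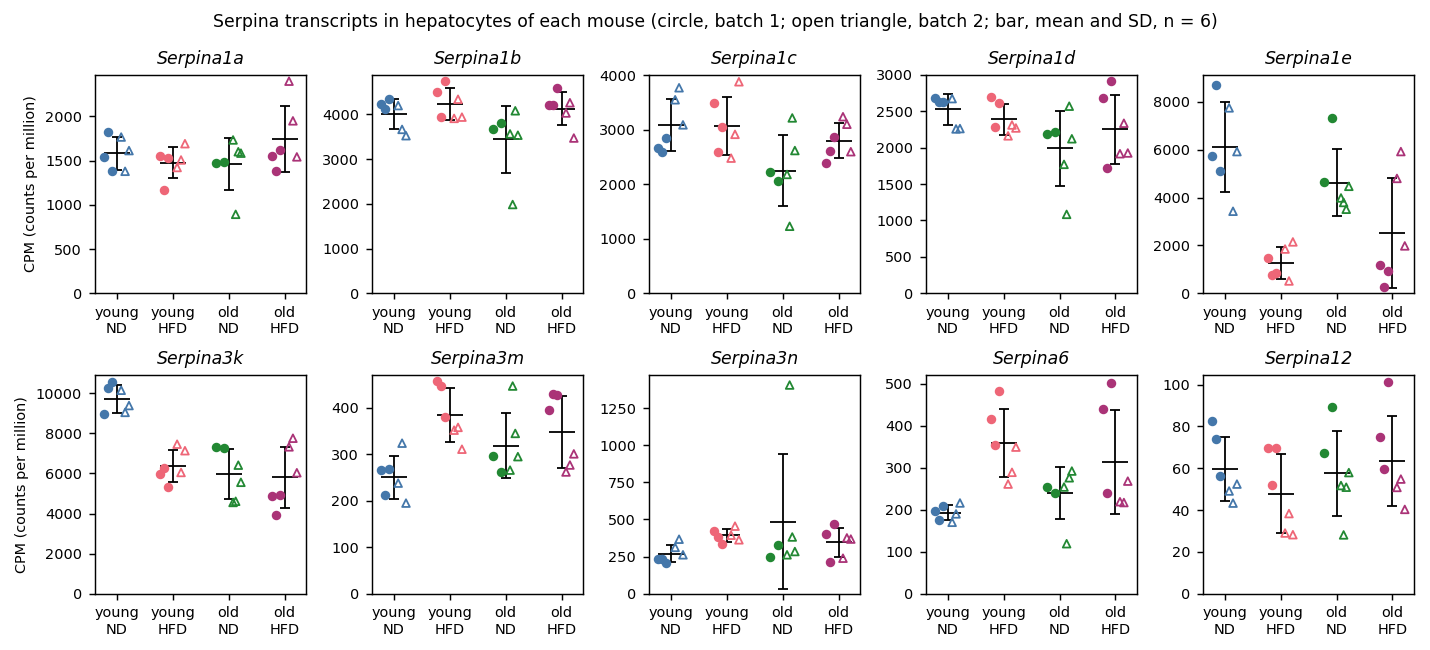
CPM of each Serpina gene (vertical axes, linear and starting at 0) in the 6 mice of each group, with filled circles for batch 1, open triangles for batch 2 and a bar for the mean with its SD. Serpina1e lay at 3428 to 8711 in young ND and at 518 to 2149 in young HFD, and in old HFD at 262 to 1175 in batch 1 and 1982 to 5920 in batch 2.

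HFD in young mice lowered 2 members and raised 2. Serpina1e, an alpha-1 antitrypsin copy, fell 5.05-fold and Serpina3k 1.53-fold, while Serpina6, the corticosteroid carrier, rose 1.82-fold and Serpina3m, an antichymotrypsin relative, 1.52-fold. These were 4 of 10 members called at an adjusted p under 0.05 (edgeR, quasi-likelihood, adjusted over all genes by Benjamini-Hochberg), where 3.5% of all genes were called, 1.91% higher and 1.59% lower. In 3 of 10 members the mice of both groups did not overlap, against 4.83% of all genes. The median log2 fold change was -0.04 over the members and 0.01 over all genes.

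Serpina1e had the lowest, median and highest CPM of 3428, 5835 and 8711 in young ND and 518, 1161 and 2149 in young HFD. Every HFD mouse was below every ND mouse. The log2 fold change was -2.34 ± 0.49 (SE, n = 6 and 6, edgeR adjusted p = 0.0106). It was -2.67 in batch 1 and -1.89 in batch 2, and stayed called when any single mouse was left out, but not in batch 2 alone (adjusted p = 0.347).

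The other alpha-1 antitrypsin copies differed little with the diet in young mice. Serpina1b had 3524, 4158 and 4339 CPM in young ND and 3911, 4146 and 4753 in young HFD. For Serpina1a the values were 1379, 1575 and 1818 in young ND against 1173, 1515 and 1691 in young HFD. Both genes overlapped between the diets. The log2 fold changes were -0.10 for Serpina1a, 0.08 for Serpina1b, 0.00 for Serpina1c and -0.08 for Serpina1d, with SE of 0.13 to 0.17 and edgeR adjusted p values of 0.765 to 0.996. Serpina1e made up 34.6% ± 6.88 (SD, n = 6) of the counts on the 5 copies in young ND and 9.99% ± 4.76 in young HFD. The copies summed as 1 gene had a log2 fold change of -0.48 ± 0.16 (SE), for which no test was made.

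**Figure D2:**
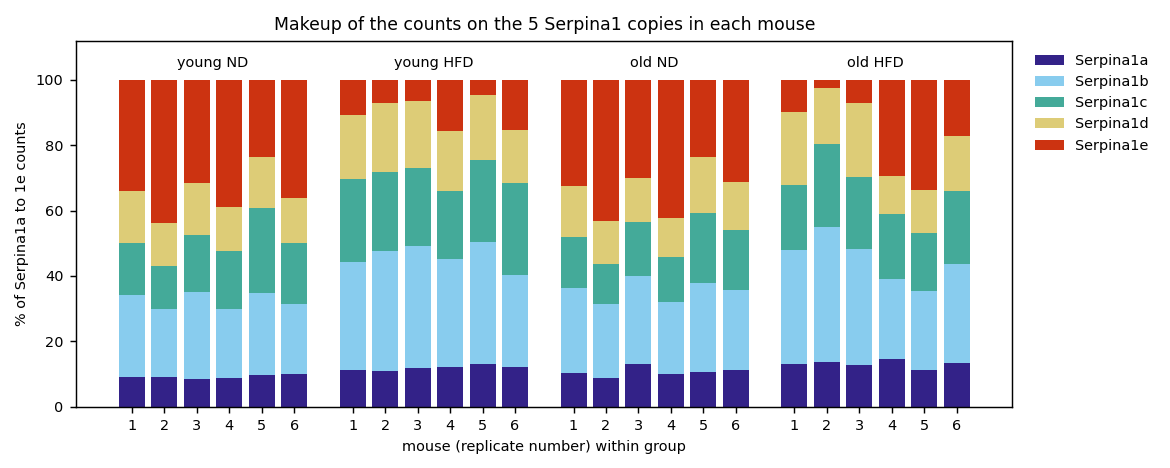
Share of the counts on Serpina1a to Serpina1e that fell on each copy (vertical axis, %), as stacked bars for each mouse of the 4 groups. Serpina1e took 23.6% to 43.8% in young ND and 4.47% to 15.7% in young HFD. In old HFD it took 2.57% to 9.78% in replicates 1 to 3 (batch 1) and 17.2% to 33.7% in replicates 4 to 6 (batch 2).

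Serpina3k had 8943, 9768 and 10587 CPM (lowest, median, highest) in young ND and 5334, 6155 and 7459 in young HFD. The groups did not overlap. Its log2 fold change was -0.62 ± 0.17 (edgeR adjusted p = 0.0406), with -0.76 in batch 1 and -0.44 in batch 2. The call was near the threshold: it was lost without any single young ND mouse, without young HFD replicate 1, 2, 3, 5 or 6, without old ND replicate 2 and without old HFD replicate 3, with adjusted p up to 0.114 and log2 fold changes of -0.64 to -0.56. It was also lost without the count filter (adjusted p = 0.0842), without the batch term (0.0634), in limma on FPKM (0.0514 and 0.0607 with pseudocounts of 1 and 0.1) and in batch 2 alone (0.648).

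Serpina6 had 170, 194 and 216 CPM in young ND and 261, 352 and 482 in young HFD. Every HFD mouse was above every ND mouse. The log2 fold change was 0.87 ± 0.20 (edgeR adjusted p = 0.0195), and without young ND replicate 2 it was 0.80 with an adjusted p of 0.0602. Batch 1 alone gave 1.10 (adjusted p = 0.0582) and batch 2 alone 0.67 (adjusted p = 0.588). Serpina3m had 195, 252 and 324 CPM in young ND and 311, 369 and 458 in young HFD. Its groups overlapped, and the log2 fold change was 0.61 ± 0.16 (edgeR adjusted p = 0.0349). Its call was lost without young ND replicate 1, 2, 3, 4 or 6 or young HFD replicate 1, 2, 3 or 5, with adjusted p up to 0.0941, without the batch term (0.0569) and in batch 2 alone (0.617).

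Serpina3n, an inhibitor of granzyme B and a known acute phase gene, had 209, 249 and 367 CPM in young ND and 337, 388 and 455 in young HFD. The groups overlapped. The log2 fold change of 0.56 ± 0.31 was not called (edgeR adjusted p = 0.317). Without old ND replicate 4, whose Serpina3n level was far above that of every other mouse and which enters the shared estimate of the spread, it was 0.58 ± 0.17 with an adjusted p of 0.0466, and without the filter on low counts 0.56 ± 0.17 with an adjusted p of 0.0259. In a fit of only the 12 mice compared it was also called (0.58 ± 0.11, adjusted p = 0.00348). Serpina12 had 43.3, 54.5 and 82.5 CPM in young ND and 28.2, 45.3 and 69.8 in young HFD, a log2 fold change of -0.37 ± 0.16 that was not called (adjusted p = 0.186).

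HFD in old mice gave 0 of 10 members called, where 3.01% of all genes were called (1.37% higher, 1.64% lower), and 0 members whose groups did not overlap, against 1.26% of all genes. DESeq2 also called 0. In edgeR 1 member, Serpina1e, had an unadjusted p under 0.05, as did 2990 of all genes. The median log2 fold change was 0.11 over the members and -0.01 over all genes.

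Serpina1e differed between the batches of old HFD mice. In old ND its CPM was 4634 and 7320 in batch 1, and 3984, 3795, 3512 and 4469 in batch 2. In old HFD it was 1175, 262 and 937 in batch 1, and 4799, 5920 and 1982 in batch 2. The batch 1 HFD mice were all below the ND mice, while 2 of the 3 batch 2 HFD mice were above all 4 ND mice of their batch. The log2 fold change was -1.02 ± 0.48 over both batches (edgeR adjusted p = 0.21), -2.95 within batch 1 and 0.13 within batch 2. Without the filter on low counts it was called (-1.05 ± 0.21, adjusted p = 7.84e-05).

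Serpina3k divided in the same way. In old HFD its CPM was 3929 to 4926 in batch 1 and 6035 to 7756 in batch 2, against 7290 to 7318 and 4552 to 6412 in old ND. The log2 fold change was -0.04 ± 0.16 over both batches, -0.72 in batch 1 and 0.43 in batch 2. Serpina3m went the other way, at 0.53 in batch 1 and -0.26 in batch 2. A model with a term for each group in each batch, added after the data were seen, gave a difference between the batches in the effect of HFD in old mice of -3.02 ± 0.72 for Serpina1e (unadjusted p = 0.000417, edgeR adjusted p = 0.515) and -1.09 ± 0.27 for Serpina3k (unadjusted p = 0.000493, adjusted p = 0.558). In that test 0 of 13583 genes were called, and 740 had an unadjusted p under 0.05. In young mice the same difference was -0.75 ± 0.71 for Serpina1e. Among old HFD mice the hepatocyte markers summed to 95576 to 138106 CPM in batch 1 and 86500 to 93397 in batch 2, and the neutrophil markers to 4.91 to 43.8 and 0.644 to 9.72. The endothelial markers summed to at most 59.8 CPM in batch 1 and 110 to 470 in batch 2, and the stellate cell markers to 26.3 to 65.3 and 66.4 to 311. The endothelial sums were also lower in batch 1 in the other groups, at 9.67 to 26.6 against 75.7 to 115 in young ND, 37.0 to 93.5 against 123 to 263 in young HFD and 30.9 to 53.7 against 109 to 596 in old ND. The part of other cell types in these Serpina differences was not tested.

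Serpina6 had 119, 254 and 292 CPM in old ND and 217, 254 and 502 in old HFD, and the log2 fold change of 0.30 ± 0.20 was not called (edgeR adjusted p = 0.395). It was 0.63 within batch 1 and 0.01 within batch 2. Serpina3n had -0.38 ± 0.32 (adjusted p = 0.517), a value that became 0.24 ± 0.18 without old ND replicate 4. Among the other copies, the largest estimate was that of Serpina1c, at 0.34 ± 0.17 (adjusted p = 0.238).

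The difference between the effects of HFD in old and young mice was tested itself. By edgeR 0 of 10 members were called, where 0.0% of all genes were called and 1247 of 13583 had an unadjusted p under 0.05. DESeq2 also called 0 members. Without the filter on low counts edgeR called 2, Serpina1e (1.29 ± 0.29, adjusted p = 0.00113) and Serpina3n (-0.94 ± 0.24, adjusted p = 0.00869). With the filter the estimates of these 2 genes were close to those values, but their SE were larger, at 0.66 and 0.45. Serpina3k (log2 0.58 ± 0.23), Serpina3m (-0.53 ± 0.22) and Serpina3n (-0.94 ± 0.45) had unadjusted p values of 0.0204, 0.0243 and 0.0458. For Serpina3n it was, without old ND replicate 4, -0.34 ± 0.24 (adjusted p = 0.762). For Serpina1e the difference was 1.31 ± 0.66, with an adjusted p of 0.547. These tests show neither that a member's response differed with age nor that it was alike.

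**Figure D3:**
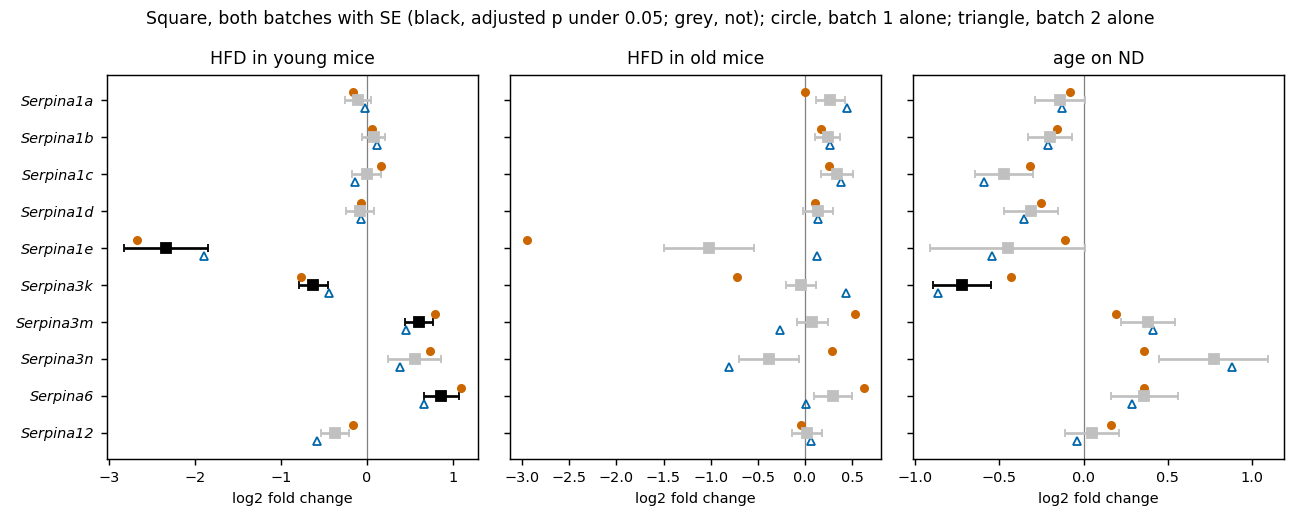
Log2 fold change of each member (horizontal axes) for HFD in young mice, HFD in old mice and age on ND. Squares with SE bars are from both batches (black where called), circles from batch 1 alone and triangles from batch 2 alone. The batches lay on the same side of 0 for the 4 called members in young mice, and on opposite sides for Serpina1a, Serpina1e, Serpina3k, Serpina3m, Serpina3n and Serpina12 in old mice, where batch 1 of Serpina1a and both batches of Serpina12 were close to 0.

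Age on ND lowered 1 member. Serpina3k had 8943, 9768 and 10587 CPM in young ND and 4552, 5984 and 7318 in old ND, and every old mouse was below every young one. It fell by 0.72 ± 0.17 on the log2 scale (edgeR adjusted p = 0.00913), a 1.64-fold difference, and stayed called when any single mouse was left out. This was 1 of 10 members called, where 8.5% of all genes were called (7.26% higher, 1.24% lower, and 4.26% in all without old ND replicate 4), and 1 of 10 without overlap, against 3.8%. Within batches the change was -0.43 and -0.86, called in neither batch alone (adjusted p = 0.418 and 0.205). Young ND and old ND mice also serve as the controls of the diet comparisons, so these comparisons share samples.

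Of the other members, Serpina1c had the smallest adjusted p, with an estimate of -0.47 ± 0.17 (edgeR adjusted p = 0.0826) and 2597, 2965 and 3769 CPM in young ND against 1230, 2199 and 3216 in old ND. Without old ND replicate 5 it was called (-0.59, adjusted p = 0.025), and without old ND replicate 4 it was -0.34 (adjusted p = 0.174). Serpina3m stood at 0.38 ± 0.16 (adjusted p = 0.14) and was called without young ND replicate 5 (0.52, adjusted p = 0.0496), while without old ND replicate 4 it was 0.26 (adjusted p = 0.357). Serpina3n stood at 0.77 ± 0.32 (adjusted p = 0.145), at 0.73 ± 0.17 without the filter on low counts (adjusted p = 0.00075), and at 0.16 ± 0.17 without old ND replicate 4. Serpina1e, at -0.45 ± 0.46, and Serpina12, at 0.05 ± 0.16, overlapped between the ages.

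Age on HFD gave 0 of 10 members called by edgeR and by DESeq2, where edgeR called 2.24% of all genes (1.82% higher, 0.42% lower), and 0 members without overlap, against 0.802%. Serpina12, with 28.2, 45.3 and 69.8 CPM in young HFD and 40.3, 57.3 and 101 in old HFD, was the 1 member with an unadjusted p under 0.05, as had 2848 of all genes (log2 0.45 ± 0.16, edgeR adjusted p = 0.129). Serpina3k, which differed with age on ND, stood at -0.14 ± 0.16 on HFD. Serpina1e stood at 0.86 ± 0.48 (edgeR adjusted p = 0.3). Without the filter on low counts it was called, with a smaller SE (0.81 ± 0.21, adjusted p = 0.00589).

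Age and HFD together, old HFD against young ND, gave 4 of 10 members called, where 30.2% of all genes were called (17.3% higher, 12.9% lower), so the members' share was near the background. Groups did not overlap for 2 members, against 7.26% of all genes. Serpina3k fell by 0.76 ± 0.17 on the log2 scale (edgeR adjusted p = 0.00234) and Serpina1e by 1.48 ± 0.49 (adjusted p = 0.0264), the latter with -3.07 in batch 1 and -0.42 in batch 2. Serpina6 rose by 0.66 ± 0.20 (adjusted p = 0.0152) and Serpina3m by 0.46 ± 0.16 (adjusted p = 0.0296). Cell type markers moved in the same comparison. Of 9 hepatocyte markers tested 4 were called lower, among them Cps1 at -0.92 ± 0.25 (adjusted p = 0.00868), Apob at -0.74 ± 0.20 (adjusted p = 0.00883) and Hnf4a at -0.73 ± 0.18 (adjusted p = 0.00534), and 1 was called higher. Of the Kupffer cell and macrophage markers 11 of 12 were called higher, of the endothelial markers 7 of 7 and of the stellate cell markers 5 of 7, with 0 lower in each. The part of this change in cell markers in the Serpina differences was not tested. Single mice ended the call of Serpina1e (young ND replicate 2 and old HFD replicates 1, 3 and 6, adjusted p up to 0.0671) and of Serpina3m (young ND replicates 1, 2, 3, 4 and 6 and old HFD replicates 1 and 2, adjusted p up to 0.0795). The Serpina1e call was also lost without the batch term (adjusted p = 0.0595), and that of Serpina3m without the count filter (0.0837). In batch 2 alone none of the 4 was called (adjusted p of 0.22 to 0.645).

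One old ND mouse stood apart in the acute phase response, the programme by which the liver raises a set of plasma proteins after injury or infection. In old ND replicate 4 Serpina3n had 1406 CPM, against 250 to 382 in the other 5 old ND mice and 209 to 471 in the other 23 mice. In this mouse 23 of the 25 listed acute phase genes were above all other old ND mice, and 21 were the highest of all 24 mice. Saa1, a serum amyloid, had 9818 CPM against 37.0 to 63.0 in the other old ND mice, Orm2, an orosomucoid, 1053 against 8.15 to 23.1, and Lcn2, lipocalin 2, 747 against 7.94 to 13.1. The same mouse also stood apart in cell type markers. Its 9 hepatocyte markers summed to 48273 CPM against 118349 to 164392 in the other old ND mice, while the sums were higher for Kupffer cell and macrophage markers (1651 against 79.1 to 1137), endothelial markers (596 against 30.9 to 165), stellate cell markers (400 against 75.5 to 180), B and plasma cell markers (151 against 28.7 to 52.1), neutrophil markers (55.5 against 0.612 to 7.0) and cholangiocyte markers (55.4 against 8.79 to 26.2). The T and NK cell markers lay within the range of the others. Albumin, with a mean of 88070 CPM over old ND, was the largest part of the hepatocyte sum. Taken singly, Hnf4a (488 against 365 to 573), Apob (5071 against 4783 to 7848) and Tat (814 against 633 to 1083) lay within the range. Cps1 (1159 against 1911 to 4128) lay below it. The part of these marker levels in the levels of the Serpina genes was not tested. The other Serpina genes moved apart in the same mouse. Serpina3m, at 447 CPM, was above the other old ND mice, and 6 members were below them, among them Serpina6 at 119 against 240 to 292, Serpina1b at 1986 against 3535 to 4081 and Serpina12 at 28.1 against 50.9 to 89.2. Serpina1e, at 3795, and Serpina3k, at 4610, lay within their range.

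**Figure D4:**
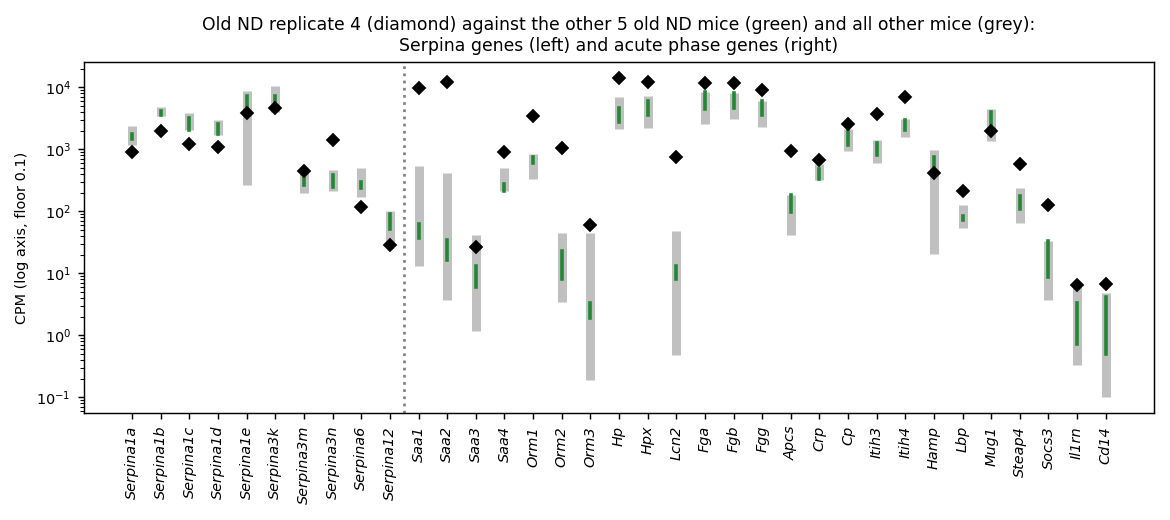
CPM (log axis, values under 0.1 drawn at 0.1) of the 10 Serpina genes and the 25 acute phase genes in old ND replicate 4 (diamonds), with the range of the other 5 old ND mice (green) and of the other 23 mice (grey). The diamond of Serpina3n lay at 1406, above all other mice, and those of Serpina1a, Serpina1b, Serpina1c, Serpina1d, Serpina6 and Serpina12 lay below all other mice.

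That mouse also bore on the count of acute phase genes called. With age on ND, where 7.26% of all genes were called higher, 11 of 25 were called higher and 0 lower, with a median log2 fold change of 0.90 against 0.01 over all genes, and without old ND replicate 4 it was 4 higher and 0 lower, with a median of 0.30, where 4.26% of all genes were called. With HFD in young mice 1 of 25 was called higher (1.91% of all genes), Il1rn, the interleukin 1 receptor antagonist, at 3.11 ± 0.47 (edgeR adjusted p = 0.000613). Without that mouse 5 were called higher, among them Lcn2 at 2.23 ± 0.55 (adjusted p = 0.0226), where 4.95% of all genes were called. In old mice 2 of 25 were called lower with HFD (1.64% of all genes), Socs3, a feedback inhibitor of cytokine signalling, at -1.79 ± 0.48 (adjusted p = 0.0396), and Fga, fibrinogen alpha, at -0.81 ± 0.22 (adjusted p = 0.0408). Without that mouse Socs3 stood at -0.94 ± 0.37 (adjusted p = 0.136) and Fga at -0.53 ± 0.17 (adjusted p = 0.081), and 2 of the 25 were called higher and 0 lower, where 2.94% of all genes were called in either direction. For age and HFD together, where 17.3% of all genes were called higher and 12.9% lower, 9 were called higher and 1 lower. The same shares apply to the counts of the other lists in that comparison.

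Of 16 other clade A genes listed, 8 had enough counts to test. Serpina4-ps1, an annotated pseudogene, fell by 3.09 ± 0.77 on the log2 scale with HFD in young mice (edgeR adjusted p = 0.0287), while Serpina3g rose by 2.17 ± 0.59 (adjusted p = 0.0417). In old mice Serpina3c rose by 1.85 ± 0.49 with HFD (adjusted p = 0.0363). With age on ND Serpina3g rose by 2.72 ± 0.59 (adjusted p = 0.006) and Serpina3f by 2.68 ± 0.72 (adjusted p = 0.0217). Without old ND replicate 4 the former was 2.23 ± 0.56 (adjusted p = 0.024) and the latter 2.23 ± 0.72 (adjusted p = 0.0833). For age and HFD together 3 of the 8 were called higher and 1 lower. Serpina3c, Serpina3f and Serpina3g were low, with means of 2.64, 0.519 and 1.3 CPM in young ND, and they are close relatives of Serpina3k, Serpina3m and Serpina3n, and how reads were placed among them was not tested.

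Among 23 listed serpins of other clades, 13 were tested. With HFD in young mice Serpinb8 rose by 0.88 ± 0.22 on the log2 scale (edgeR adjusted p = 0.0332) and Serpine2, a thrombin inhibitor, fell by 1.02 ± 0.21 (adjusted p = 0.0103). Serpinb1a, an intracellular inhibitor of neutrophil proteases, rose with HFD in old mice by 1.25 ± 0.29 (adjusted p = 0.0231). It was the 1 member of this list called with age on HFD, at 2.24 ± 0.30 (adjusted p = 0.000676), where 1.82% of all genes were called higher. With age on ND 4 of 13 were called higher and 0 lower, where 7.26% of all genes were called higher, and without old ND replicate 4 it was 2 higher and 0 lower, where 4.26% were called in either direction. For age and HFD together 6 were called higher and 0 lower.

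Of the 7 proteases listed as targets only 2 were tested. Prtn3, proteinase 3 of neutrophils, was called higher with age on ND, at 5.03 ± 1.17 on the log2 scale (edgeR adjusted p = 0.00936), but at 2.79 ± 0.88 (adjusted p = 0.0769) without old ND replicate 4, which had 73.1 CPM against 0.353 to 5.85 in the other old ND mice. Its mean in young ND was 0.327 CPM. The 3 neutrophil markers tested were also called higher with age on ND (7.26% of all genes), and the 6 listed summed to 0.0663 to 0.953 CPM in young ND and 0.612 to 55.5 in old ND. Without old ND replicate 4, 0 of those 3 were called with age on ND, where 4.26% of all genes were called. The part of neutrophils in the Prtn3 value was not tested.

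The 15 hormone carrier and glucocorticoid response genes gave 0 called with HFD in young mice, where 3.5% of all genes were called. With old ND replicate 4 left out, 2 were called higher, Mt1 and Mt2, where 4.95% of all genes were called. In old mice 1 of 15 was called higher with HFD (1.37% of all genes), Tsc22d3, a glucocorticoid-induced gene, at 1.15 ± 0.25 on the log2 scale (edgeR adjusted p = 0.0159). With age on ND, where 7.26% of all genes were called higher, 2 of 15 were called, and both were higher. The metallothioneins Mt1, at 5.99 ± 1.28 (edgeR adjusted p = 0.00576), and Mt2, at 7.31 ± 1.60 (adjusted p = 0.0064), were those 2 genes. The size of both values rested on old ND replicate 4, which had 632 CPM of Mt1 against 3.72 to 13.3 in the other old ND mice, and 505 of Mt2 against 0.634 to 2.66. Without it they stood at 2.21 ± 0.63 (adjusted p = 0.0446) and 2.11 ± 0.60 (adjusted p = 0.047). Tat, the tyrosine aminotransferase that glucocorticoids induce, fell by 0.78 ± 0.24 for age and HFD together (adjusted p = 0.0179).

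Among 19 regulators and cytokine receptors, 0 were called with HFD in young mice, where 3.5% of all genes were called. With age on ND 2 of 19 were called higher and 0 lower, where 7.26% of all genes were called higher. One was Osmr, the oncostatin M receptor, at 2.48 ± 0.65 on the log2 scale (edgeR adjusted p = 0.0181), which stood at 1.42 ± 0.55 (adjusted p = 0.161) with old ND replicate 4 left out. Stat3, which transmits interleukin 6 signals, was called higher with age on ND, at 0.64 ± 0.15 on the log2 scale (edgeR adjusted p = 0.00901), and lower with HFD in old mice, at -0.56 ± 0.15 (adjusted p = 0.0363). Without old ND replicate 4 the former was 0.53 ± 0.13 (adjusted p = 0.0257) and the latter -0.41 ± 0.13 (adjusted p = 0.081). For age and HFD together 4 were called higher and 6 lower, the latter with Hnf4a, a factor that maintains the hepatocyte programme, at -0.73 ± 0.18 (adjusted p = 0.00534). Of 19 genes for folding and export in the endoplasmic reticulum, through which every secreted serpin passes, 0 were called with HFD at either age (3.5% and 3.01% of all genes). With age on ND 1 of 19 was called, where 8.5% of all genes were, Edem3, a mannosidase of glycoprotein disposal, which fell by 0.53 ± 0.14 (adjusted p = 0.0191), and for age and HFD together 1 was called higher and 7 lower.

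For the members called in any comparison, the genes most alike over the 24 mice were found by Pearson's r of log2 CPM among 10459 genes. These values are a description, since the mice share diet, age and batch. Serpina1e was most like the complement genes C8b and C6, both at 0.90, and Ythdf1, at 0.89. C8b stood at a mean of 345 CPM in young ND and 179 in young HFD, and C6 at 303 and 157. Serpina3k was most like Gm26967 at 0.88 and the transporters Slco1a1 and Slc22a28 at 0.86 each. Serpina3m was most like Acnat2 at 0.87, Slc22a29 at 0.86 and Gm43672 at 0.83, and Serpina6 was most like Wee1 at 0.86, Slc5a6 at 0.85 and Slc16a7 at 0.85. Within the family r was 0.85 between Serpina1b and Serpina1d, 0.67 between Serpina1e and Serpina3k and -0.78 between Serpina1e and Serpina3m, while Serpina1e had -0.27 to 0.29 with the other Serpina1 copies.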

How the data were processed

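Hepatocyte RNA-seq of 24 mice was grouped by diet, age and batch from the sample labels. The deposited gene counts are whole numbers that the authors made with STAR 2.7.3a on mm10 and HTSeq 0.11.2 by the submitters' processing notes, and the deposited FPKM values come from CuffLinks, with an adjustment for batch by the authors. The counting mode and strand setting are not given in the sources used here. The 37789 genes of the FPKM table included all 10 members.

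Counts were tested with edgeR 4.0.16 (R 4.3.3), with TMM normalization, filterByExpr by group, 1 model of 4 groups and batch over 24 mice, quasi-likelihood F tests and Benjamini-Hochberg adjustment over 13583 genes at 0.05. CPM used TMM-scaled totals. No mouse pair of a group agreed within sampling noise (chi-square per degree of freedom of at least 15.2). Totals of 9200332 to 22185069 counts per mouse bound only the counting error, since reads had no molecular identifiers. In counts simulated for HFD in young mice over 13583 genes, the test recovered 60.6% of genes changed by a log2 of 1, and 85.9% of those changed by 2. The shares were 51% and 83% for HFD in old mice, and 31.6% and 68% for the interaction. Of the calls in these simulations 5.84% were false for HFD in young mice, 5.63% for HFD in old mice and 7.48% for the interaction.

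The members and lists were chosen with earlier results of these data known. Named genes were all members, per list at most the 3 called genes of smallest adjusted p per comparison, the 3 genes most alike to each called member, and cell markers, except 1 gene that is not reported here. The lists were other clade A serpins, serpins of other clades, target proteases, hormone carriers and glucocorticoid response, acute phase proteins, regulators and cytokine receptors, endoplasmic reticulum folding and export, and cell type markers. Alternatives were DESeq2 1.42.0, RLE size factors, no count filter, no batch term, the replicate number as a block, only the groups compared, each batch alone, limma 3.58.1 on log2(FPKM + 1) or log2(FPKM + 0.1), summed copies, and leaving out each mouse. Python 3.11.15 with numpy 2.4.6, pandas 2.3.3 and matplotlib 3.10.9 was used for tables and figures.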

Additional observations from a re-analysis of the deposited data

Results flagged for a closer look

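In 5 of 40 sets of 6 mice (10 genes in 4 groups) the highest or lowest mouse lay farther from the next than Dixon's critical share of the range at the 95% level, and chance alone marks about 1 set in 20. All 5 were in old ND. Old ND replicate 4 gave 4 of them: Serpina1a was lowest at 893 CPM (the others 1468 to 1733), Serpina1b lowest at 1986 (3535 to 4081), Serpina6 lowest at 119 (240 to 292) and Serpina3n highest at 1406 (250 to 382). The fifth was Serpina1e in old ND replicate 2, highest at 7320 CPM (3512 to 4634).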

How the results depend on the processing

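Each of the 9 called values of single members was recomputed 36 times and changed direction in none, while over all of them 24 values under another setting and 34 with a mouse left out were no longer called. The number of members called with HFD in young mice (4) was 2 without the batch term, 2 with the replicate block in place of batch and 0 in batch 2 alone, and 1 to 5 with a mouse left out. For age on ND (1) it was 2 without the count filter, 0 with the replicate block beside batch, 0 in either batch alone, and 1 to 2 with a mouse left out. For age and HFD together (4) it was 0 in batch 2 alone and 2 to 4 with a mouse left out. Without the count filter it was 1 rather than 0 for HFD in old mice and for age on HFD, and 2 rather than 0 for the interaction, by Serpina1e in these 3 comparisons and also Serpina3n in the last. These estimates changed little, but their SE became smaller. For HFD in young mice the SE of Serpina1b and Serpina1e were both 0.21 without the filter, against 0.13 and 0.49 with it. The cause was not tested. The replicate numbers belong to different mice and did not pair them (mean correlation of same-numbered mice 0.182, and -0.00197 with batch means removed), and with the block beside batch Serpina3k with age on ND stood at -0.66 (adjusted p = 0.0608). The block in place of batch and beside it also ended the calls of Serpina3k with HFD in young mice (adjusted p = 0.0651 and 0.0605) and of Serpina1e for age and HFD together (0.0512 and 0.0529), and in place of batch that of Serpina3m with HFD in young mice (0.054). For HFD in young mice Serpina1c, main value 0.00, was -0.00033 without the count filter, -0.01 without batch and with either replicate block, -0.14 in batch 2 alone and -0.06 to 0.08 with a mouse left out. For HFD in old mice, batch 1 alone gave Serpina1a -0.00072, Serpina3n 0.29 and Serpina12 -0.04, batch 2 alone gave Serpina1e 0.13, Serpina3k 0.43 and Serpina3m -0.26, and no count filter gave Serpina12 -0.01. With a mouse left out Serpina3k ranged from -0.11 to 0.07, Serpina3n from -0.53 to 0.24 and Serpina12 from -0.06 to 0.10. Leaving out old ND replicate 4 and old HFD replicate 2, chosen after seeing the data, gave Serpina3k 0.0018 and Serpina3n 0.33, and Serpina3n was then called for HFD in young mice (0.58, adjusted p = 0.0208) and for age and HFD together (0.49, adjusted p = 0.0207). For age on ND, Serpina12 was -0.05 without batch, -0.07 with the replicate block in place of batch, -0.04 in batch 2 alone and -0.02 to 0.17 with a mouse left out. For age on HFD, batch 1 alone gave Serpina1e -0.39 and batch 2 alone Serpina3k 0.02. For age and HFD together, batch 1 alone gave Serpina1a -0.09, no count filter gave Serpina1b -0.01, and Serpina12 ranged from -0.01 to 0.15 with a mouse left out. For the interaction, batch 1 alone gave Serpina1e -0.28. Age is confounded with substrain, copies can share reads, and each batch holds at most 4 mice per group.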
